A study of Mus musculus with 2 samples.

Results

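The Igkv genes are the variable segments of the kappa immunoglobulin light chain. They were described in spleen cells of 1 wild-type mouse and 1 mouse with the Mefv M694I knock-in. All symbols of the feature list that begin with Igkv were taken, which gave 160 of 32285 features. The wild-type library is labelled M694I WT and the other M694I knock-in, with no further treatment given. Ages were matched per the series' design text, while the sources used here give no age, strain or sex. Mefv encodes pyrin, a sensor that starts an inflammasome, and substitutions at this residue of the human protein are known from familial Mediterranean fever. Whether the allele was homozygous is not given, and the titles name 1 mouse per library. Both libraries hold whole splenocytes on 10x Genomics 3' v3.1 chemistry, in which reads start near the end of the transcript.

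A B cell builds its kappa chain by joining 1 Igkv segment to an Igkj segment, next to the constant exon Igkc. Recombination proceeds by deletion where a segment points the same way as Igkc, and by inversion where it points the other way. Most mouse B cells carry kappa rather than lambda chains, and a mature cell usually makes 1 light chain, so the segment in a cell's RNA names its receptor. Transitional B cells are recent arrivals from bone marrow. Follicular, marginal zone and B-1 cells are the mature subsets of the spleen, and plasma cells secrete antibody.

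All 160 segments matched the GENCODE M21 annotation of GRCm38 (mm10) and lie on chromosome 6. It lists 100 as functional V genes and 60 as pseudogenes. The last 66 bases of the exon that ends at the joining point are shown for the segments that carry the results. Capitals run from the codon of the conserved cysteine to the end, which is the germline start of the third complementarity-determining region. The first group led B cells in both libraries, at chr6:68121762-68121827 (plus strand), chr6:68271202-68271267 (plus) and chr6:69814631-69814696 (minus), in the order given.
Igkv1-117: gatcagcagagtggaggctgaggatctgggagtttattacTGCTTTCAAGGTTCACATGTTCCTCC
Igkv1-110: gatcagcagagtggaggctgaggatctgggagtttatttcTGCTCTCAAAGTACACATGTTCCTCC
Igkv12-44: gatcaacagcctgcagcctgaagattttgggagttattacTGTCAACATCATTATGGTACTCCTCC
The next pair is nearly alike in sequence, and 1 of them stood out in follicular-like cells. They lie at chr6:67861594-67861659 and chr6:68037253-68037318, both on the plus strand.
Igkv17-127: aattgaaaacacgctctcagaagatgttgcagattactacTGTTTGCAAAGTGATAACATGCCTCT
Igkv17-121: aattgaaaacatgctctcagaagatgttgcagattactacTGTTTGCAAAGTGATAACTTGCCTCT
The third group had a higher share in B-1-like cells than in the other stages, in both libraries for Igkv14-126 and only in the knock-in for Igkv4-91. They lie at chr6:67896577-67896642 (plus) and chr6:68768555-68768620 (minus).
Igkv14-126: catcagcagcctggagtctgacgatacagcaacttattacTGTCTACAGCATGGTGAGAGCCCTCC
Igkv4-91: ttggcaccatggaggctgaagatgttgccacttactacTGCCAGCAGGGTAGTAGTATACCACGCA
The last group led plasma cells of the knock-in, or of both libraries in the case of Igkv14-111, at chr6:69900424-69900489 (minus), chr6:67556151-67556216 (plus) and chr6:68256804-68256869 (plus).
Igkv5-39: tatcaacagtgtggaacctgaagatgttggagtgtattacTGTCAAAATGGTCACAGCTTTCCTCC
Igkv2-137: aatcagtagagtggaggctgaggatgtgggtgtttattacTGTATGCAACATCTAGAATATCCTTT
Igkv14-111: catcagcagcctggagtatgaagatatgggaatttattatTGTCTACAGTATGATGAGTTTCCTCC

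Over the last 200 bases, Igkv17-127 and Igkv17-121 were 98.5% identical and Igkv1-117 and Igkv1-110 were 96.5% identical. Igkv5-39 shared 91% with Igkv5-43. Of the 100 functional segments, 8 were at least 98% identical to another segment over these bases, so reads from them may be split or lost between copies and their counts are uncertain.

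The deposited files held raw counts of unique molecular identifiers (UMIs) in 10449 wild-type and 9000 knock-in barcodes. After filters, 9501 and 8410 cells remained, with medians of 2526 and 2023 UMIs per cell. B cells had at least 3 UMIs of Cd79a, Cd79b and Ms4a1 in sum and fewer than 50 of Jchain, which gave 6423 wild-type and 5450 knock-in cells. Plasma cells had at least 50 Jchain UMIs, and there were 33 (0.347% of kept cells) and 151 (1.80%). All 6 plasma cell markers of the list were detected in the plasma cells of both libraries. T cells with no UMI of the 3 B cell genes, 1350 and 1332, served as a background from free RNA; the limit of 0 can set it low. The 2 libraries shared 27 barcode sequences. With 1 library per genotype no difference between them was tested, and all intervals are exact 95% intervals for counting error only.

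Igkv RNA was sparse in B cells and about equal in the 2 libraries. Wild-type B cells held 1189 Igkv UMIs, or 60.2 CPM (counts scaled so that the UMIs of the class sum to 1e6), with an interval of 56.8 to 63.7. Knock-in B cells held 937, or 65.5 CPM, with an interval of 61.4 to 69.8. The log2 ratio of knock-in over wild type was 0.12, and its interval of -0.003 to 0.25 included no difference. Of wild-type B cells 15.4% had an Igkv UMI, against 14.1% in the knock-in, at median depths of 2382 and 1892.5 UMIs. Thinned to 1000 UMIs per cell, leaving out 21 and 112 shallower cells, the shares were 6.17% and 6.88%. Wild-type T cells had no Igkv UMI in 1350 cells, which allows a share of up to 0.222% by 3 counts (exact upper limit 0.273%), and 4 of 1332 knock-in T cells had 1 each (0.300%), at median depths of 3186 and 2692 UMIs. T cells allowed up to 2 such UMIs, a rule added after seeing the data, gave 0 of 1452 and 4 of 1399 cells (0.286%). Kept cells of no class had an Igkv UMI in 1.00% and 1.96%, and the B cell shares were above all of these in both libraries.

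Functional segments held 99.5% of the raw Igkv UMIs in each library, 2170 (wild type) and 3273 (knock-in). The 60 pseudogenes held 12 and 15, and 48 of them had none in either library. Among functional segments 89 were detected, and 11 had 0 UMIs in both libraries, 4 of them of the large Igkv4 family (Igkv4-54, Igkv4-62, Igkv4-63 and Igkv4-81). Those 11 were no closer in sequence to a neighbouring copy than the rest, with a median best identity of 91% against 94% for the 89.

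Over kept cells of all kinds, the share of UMIs that were Igkv differed between the libraries. Igkv UMIs made up 69.5 CPM of the wild-type and 135.9 CPM of the knock-in library, a log2 ratio of 0.97. In plasma cells they made up 1961 CPM (interval 1833 to 2095) and 1031 CPM (989 to 1075), a log2 ratio of -0.93. Plasma cells held 874 of the 2093 Igkv UMIs of the wild type and 2216 of the 3248 of the knock-in. The higher total of the knock-in thus came with more plasma cells in the library, at a lower Igkv CPM within them, and with B cells at a similar level. How much of it rests on plasma cell number was not tested. In the wild type 1 plasma cell held 118 UMIs, 13.5% of the plasma sum.

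No single Igkv segment reached a mean of 10 CPM in all cells or in B cells, the planned limit for comparing sums. The highest means were 7.097 and 5.19 CPM, both for Igkv1-117. At that limit 3.22% of all genes were at least 1.5-fold higher over all cells and 4.16% lower. With at least 20 UMIs and no CPM limit, a filter chosen after seeing the data, 49 segments could be compared over all cells. Of these 30 were at least 1.5-fold higher in the knock-in (7.59% of all genes were) and 7 lower (9.55%), with a median log2 ratio of 1.33 against -0.08 over all genes. Within B cells 30 segments could be compared, 7 higher (7.63% of all genes) and 2 lower (8.76%), with a median of -0.03 against -0.04. Within plasma cells 29 passed the 10 CPM limit, and 15 were higher (16.0% of all genes) and 13 lower (16.5%). Of these 29 segments 10 had 0 UMIs in 1 library and 11 reached 10 CPM in both, so many passed the limit through 1 library alone and the counts are a description only. Igkv6-15 had 143 wild-type and 9 knock-in UMIs, but 108 of the 143 came from 1 cell. Igkv1-135 had 13 and 156. The 13 came from 1 wild-type cell, and the highest of the 8 knock-in cells it led held 43.

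Of the 30 segments compared within B cells, the intervals of 4 left out a log2 ratio of 0: Igkv3-5, Igkv16-104, Igkv6-20 and Igkv17-121, all chosen after their values were seen. The share of all genes with such an interval is not given here, so the count of 4 is a description only. The intervals treat UMIs of 1 cell as independent. Igkv3-5 had 3 wild-type and 33 knock-in UMIs, but 21 of the 33 came from 1 cell with 25 Jchain UMIs, and 12 UMIs remained without it. By cells, Igkv3-5 marked 2 wild-type and 10 knock-in B cells, 0.213% and 1.35% of those marked, a ratio of 6.36 (1.36 to 59.7). Igkv16-104 had 9 and 16 UMIs, a log2 ratio of 1.30 (0.031 to 2.66), and Igkv6-20 had 12 and 20, a log2 ratio of 1.20 (0.10 to 2.37). Igkv17-121 had 54 UMIs in 41 wild-type cells and 20 in 18 knock-in cells, a log2 ratio of -0.97 (-1.79 to -0.20).

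Other genes of light chain assembly were compared in B cells from a list of 29. Of the 21 that passed the filter, 0 were at least 1.5-fold higher (3.74% of all genes) and 2 were lower (3.47%). The lower ones were Irf4, a factor that drives light chain recombination and plasma cell formation, at 160.3 against 97.5 CPM (log2 ratio -0.72), and Pou2f1, which binds the octamer of immunoglobulin promoters, at 55.2 against 34.7 CPM (-0.67). Igkc itself stood at 6023 CPM in wild-type B cells against 8841 CPM in knock-in ones, a log2 ratio of 0.55. Igkv UMIs per 1000 Igkc UMIs in B cells were accordingly 10.0 and 7.41. The recombinase genes Rag1 and Rag2 had 14 and 4 UMIs in wild-type and 5 and 3 in knock-in B cells, too few to compare. Markers of other cells were also present in these B cells. Of the 6 plasma cell markers, Jchain stood at 8.0 and 54.7 CPM and Derl3 at 2.43 and 7.69 CPM, while Xbp1 (80.7 and 78.8), Sdc1 (8.25 and 8.11) and Prdm1 (10.8 and 8.18) were alike or lower in the knock-in and Tnfrsf17 had 0 and 1 UMIs. The erythroid list summed to 57.1 and 606.6 CPM, the myeloid list to 161.9 and 342 CPM and the T cell list to 66.9 and 111.5 CPM. Their part in the Igkv values was not tested.

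To count each cell once, a cell was said to be led by a segment with at least 2 UMIs and more than any other. Only 106 wild-type (1.65%) and 92 knock-in B cells (1.69%) were led in this way. In 834 of the 992 wild-type cells with Igkv RNA a single UMI was present. A cell with 1 UMI or more of a segment and no tie is called marked. This looser rule gave 940 wild-type and 739 knock-in cells with 86 and 79 segments and carries the description of B cells below. Ties left out 52 and 27 cells. No led B cell had a second segment with 2 UMIs or more. Such a cell needs a leading segment with more than 2 UMIs as well. Most B cells with Igkv RNA held 1 UMI, so few could have shown a second segment.

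The kappa repertoire of B cells was dominated by the same few segments in both libraries. Igkv1-117 marked 81 of 940 wild-type cells (8.62%, interval 6.90 to 10.6%) and 52 of 739 knock-in cells (7.04%). Igkv1-110 marked 7.45% and 7.31%, and Igkv12-44 marked 6.70% and 7.17%. These 3 held the first places in each library. Igkv1-135 (5.11% and 4.47%), Igkv17-127 (4.89% and 4.33%), Igkv12-46 (4.36% and 4.74%), Igkv9-120 (3.72% and 4.19%) and Igkv19-93 (4.36% and 3.38%) came next. Neighbours in this order have overlapping intervals, so their ranks cannot be told apart. The 10 leading segments held 52.7% of marked wild-type and 48.0% of marked knock-in cells. Across the 96 segments that marked a cell, the shares of the 2 libraries had a Pearson correlation of 0.96 and a Spearman correlation of 0.80, given as a description. The points share the read structure and the annotation, and cells with few UMIs set many of them.

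**Figure D1:**
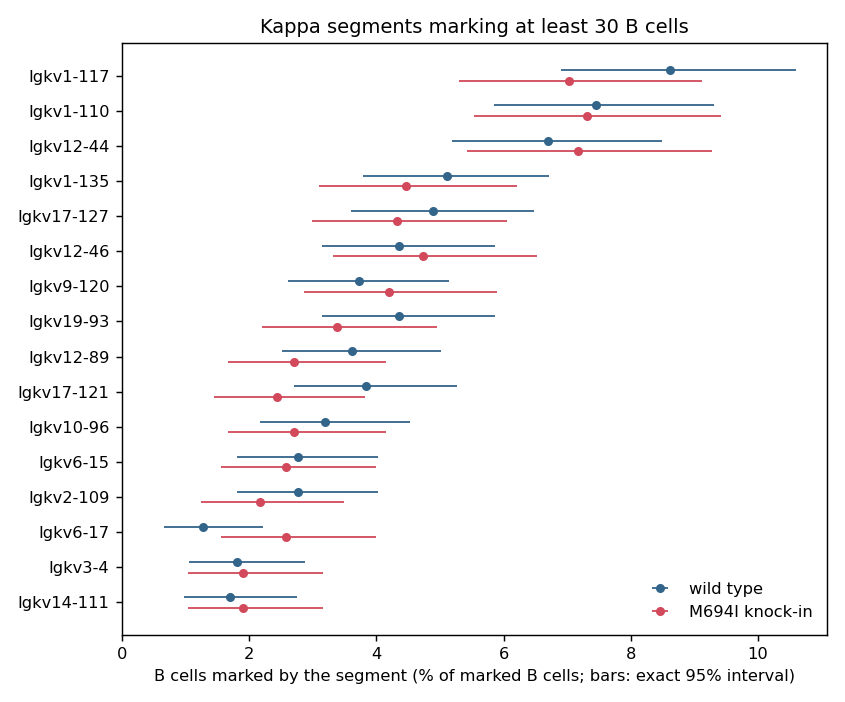
Share of marked B cells (at least 1 Igkv UMI and no tie) carrying each of the 16 segments that mark at least 30 cells in both libraries together. Points are the shares in 940 wild-type and 739 knock-in cells and bars are exact 95% intervals for counting error; the 2 libraries overlap for each segment, with Igkv1-117, Igkv1-110 and Igkv12-44 at the top.

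Of the 16 segments that marked at least 30 cells, 0 had a ratio of shares whose interval left out 1. Over all 96 marked segments the interval of 1 did, that of Igkv3-5 given above. The median ratio of knock-in over wild type was 0.907. Igkv6-17 had the highest ratio, 2.01 (0.928 to 4.55), with 12 and 19 cells. Igkv9-120, Igkv14-111, Igkv12-46 and Igkv12-44 followed at 1.13, 1.11, 1.09 and 1.07. Igkv17-121 had the lowest, 0.636 (0.340 to 1.15), with 36 and 18 cells. Next lowest were Igkv12-89 at 0.748, Igkv19-93 at 0.776, Igkv2-109 at 0.783 and Igkv1-117 at 0.817.

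With the stricter rule the leading names were largely shared. Igkv1-117 led 13 of 106 wild-type (12.3%) and 10 of 92 knock-in cells (10.9%). Igkv1-135 and Igkv12-44 each led 8 and 6 cells, Igkv1-110 led 5 and 9, and Igkv17-127 led 6 and 6. Igkv17-121 led 8 and 2, Igkv9-120 led 3 and 5, Igkv12-46 led 3 and 4, and Igkv6-15 led 4 and 3. Igkv19-93, Igkv14-111, Igkv15-103, Igkv6-32, Igkv6-17 and Igkv6-20 led 4 to 6 cells each over both libraries. For Igkv6-17 the cells were 4 and 1, the reverse of its order among marked cells, so its direction depends on the rule.

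Usage was unequal along the locus and alike in the 2 libraries. The segments span 18.4 to 3166 kb from Igkj1. Segments at 500 to 1000 kb held 21.2% of marked wild-type and 24.8% of marked knock-in B cells, and those at 2500 to 3000 kb held 24.0% and 21.8%. Between them lay a stretch of little use. The 17 functional segments at 1000 to 1500 kb held 2.66% (1.73 to 3.90%) and 2.71% (1.66 to 4.15%). The 2 functional segments beyond 3000 kb, Igkv1-135 and Igkv2-137, held 6.06% and 4.74%. Segments with the orientation of Igkc, 38 of the 100 functional ones, marked 54.3% and 52.8% of the cells.

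**Figure D2:**
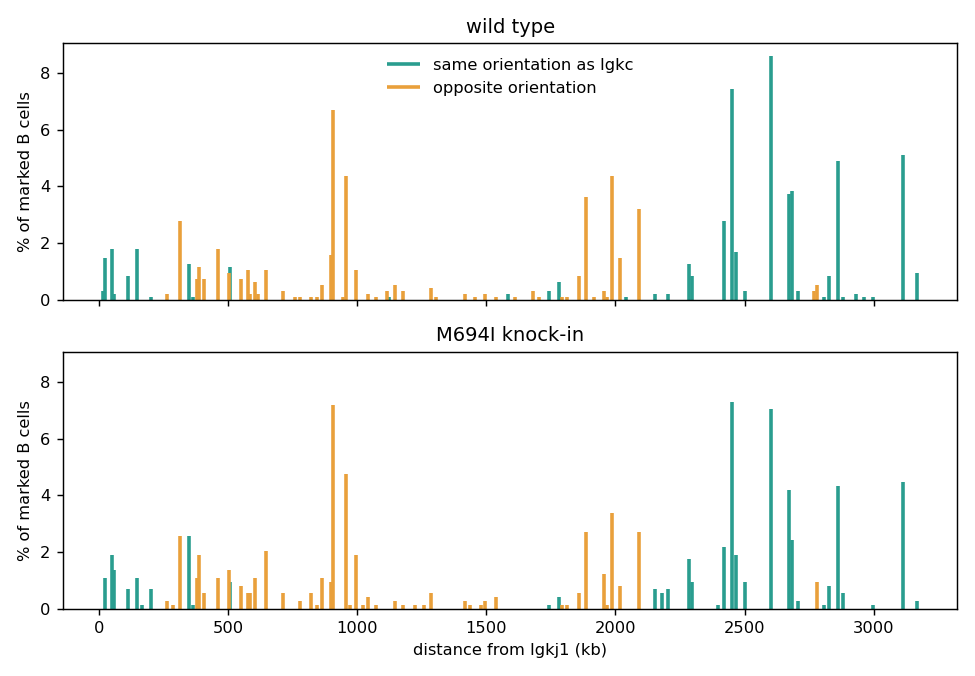
Share of marked B cells for each Igkv segment against its distance from Igkj1 in kb, in the wild type (top) and the knock-in (bottom), coloured by orientation relative to Igkc. Tall lines stand at 500 to 1000 kb (Igkv12-44 and Igkv12-46) and at 2000 to 3000 kb in both libraries, and low lines fill 1000 to 1500 kb.

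By family, Igkv1 marked 22.9% of wild-type and 20.8% of knock-in cells with 10 functional segments, and Igkv12 marked 15.6% and 16.9%. Igkv6 marked 9.68% and 12.0%, and Igkv17 marked 8.72% and 6.77%. The Igkv4 family has 26 functional segments, the highest number, and marked 3.83% (2.70 to 5.26%) and 4.60% (3.21 to 6.37%). In plasma cells the Igkv4 family led 2 of 32 wild-type cells (6.25%) and 24 of 134 knock-in cells (17.9%, 11.8 to 25.5%). The knock-in interval for plasma cells lay above that for B cells of the same library, while the wild-type intervals overlapped. The low B cell stretch at 1000 to 1500 kb likewise held 14.9% of led knock-in plasma cells (9.36 to 22.1%) and 6.25% of wild-type ones. Plasma cells were led at 2 UMIs and B cells marked at 1, and knock-in plasma cells share segment pairs as described below.

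B cells were clustered without immunoglobulin and T cell receptor segments, so the segments had no part in defining stages. Clusters were named from marker lists: a transitional-like cluster with Cd93 and Sox4 on its list, an activated-like cluster led by Mir155hg and Nfkbid, a marginal zone-like cluster with Cd1d1 and Cd9, and a B-1-like cluster with Bhlhe41, Zbtb32 and Ctla4. The B-1 list also held Cd5, Spn and Itgam. Only 3 of its markers were detected in at least 10% of the B-1-like cells, and the score of 0.717 was close to the limit of 0.7. A cycling-like cluster had Mki67 and Top2a. Clusters 0, 1, 3, 6 and 12 scored as follicular-like, but cluster 0 was led by Fos and Nr4a1 and cluster 12 by interferon-induced genes such as Ifit3. They are therefore compared between libraries by number. A cluster with S100a8 and S100a9, another with Cd3d and Cd3e and an unnamed one were set aside.

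As a share of all UMIs, transitional-like cells held the most Igkv RNA of the named stages in both libraries. Per cell the order differed. In the knock-in, 797 transitional-like cells held 150 Igkv UMIs and 423 marginal zone-like cells held 108. In the wild type, 1008 transitional-like cells held 273 and 48 cycling-like cells held 17. Their wild-type level was 109.5 CPM and their knock-in level 93.4 CPM. Follicular-like clusters 0, 1, 3 and 6 ranged from 53.9 to 68.3 CPM (wild type) and from 56.9 to 85.3 CPM (knock-in). The interval of the highest knock-in one, cluster 6 (62.2 to 114.2 CPM), overlapped that of the transitional-like cells (79.0 to 109.6 CPM). Against the follicular-like cells as a whole, the transitional-like level was 1.77 times as high in the wild type (1.53 to 2.05) and 1.29 times in the knock-in (1.07 to 1.55). Marginal zone-like cells were at 50.4 and 55.8 CPM, B-1-like cells at 40.9 and 54.1 CPM, activated-like cells at 54.0 and 66.8 CPM, and cycling-like cells at 31.2 and 39.4 CPM. Igkc was also higher in transitional-like cells, so that Igkv per Igkc UMI was 1.44 times the follicular-like value in the wild type (1.24 to 1.67) and 1.17 times in the knock-in (0.967 to 1.41).

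The share of cells with an Igkv UMI moved with depth. At the deposited depth it was 22.1% in wild-type transitional-like cells and 20.6% in marginal zone-like cells, whose median depths were 2149.5 and 4527 UMIs. Thinned to 1000 UMIs, the shares were 10.9% and 4.84%. In the knock-in the same stages had 16.1% and 18.7% at the deposited depth and 10.0% and 5.29% after thinning. Cells with more lambda than kappa constant UMIs, 805 and 573, still showed Igkv RNA in 11.1% and 8.03%, against 16.3% and 14.97% of the kappa-dominant cells.

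**Figure D3:**
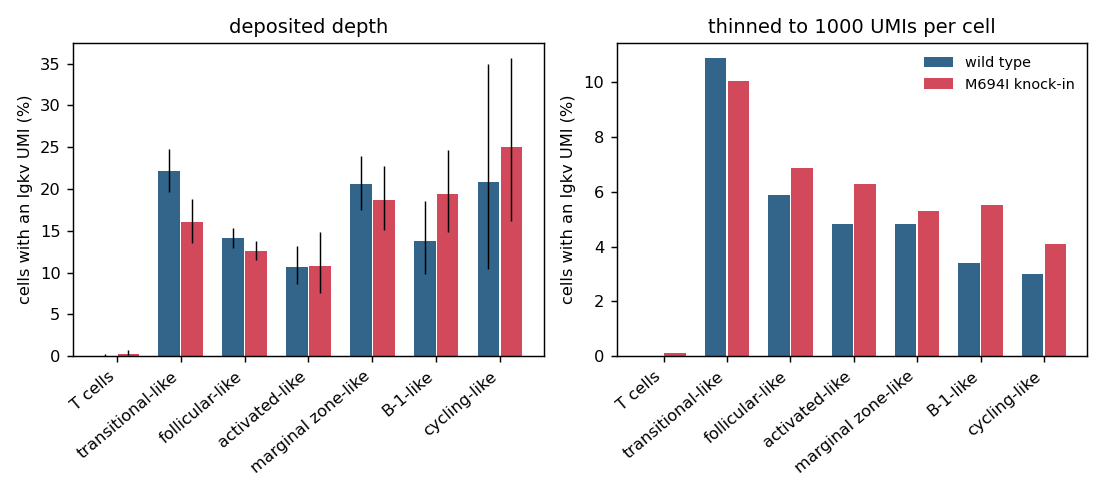
Share of cells with at least 1 Igkv UMI in T cells and in each B cell stage, at the deposited depth with exact 95% intervals (left) and thinned to 1000 UMIs per cell (right, an expected value with no interval). After thinning, transitional-like cells are highest in both libraries, at 10.9% and 10.0%, and T cells are near 0.

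Which segments marked a stage was compared within each library for 18 segments and 6 stages, 216 ratios in all, with intervals not adjusted for that number. Of these, 13 intervals left out 1. Igkv1-110 was frequent in marginal zone-like cells. It marked 23 of 124 wild-type marginal zone-like cells (18.5%) against 5.81% of the other stages, a ratio of 3.19 (1.85 to 5.38). In the knock-in it marked 9 of 75 (12.0%), the first place of that stage too, with a ratio of 1.78 whose interval of 0.762 to 3.71 included 1. In wild-type follicular-like cells Igkv1-110 was below the other stages, at 4.47% against 10.8% (ratio 0.415, 0.236 to 0.707). Igkv2-109 marked 10 of 124 wild-type marginal zone-like cells, 8.06% against 2.02% elsewhere (ratio 3.99, 1.62 to 9.36), and 2 of 75 in the knock-in, 2.67% against 1.93% (1.38, 0.15 to 6.22).

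Igkv17-121 was marked more in follicular-like cells of both libraries. Its share was 5.53% against 2.02% in the other wild-type stages (ratio 2.74, 1.24 to 6.65) and 3.74% against 0.673% in the knock-in (5.55, 1.29 to 50.1). Its near copy Igkv17-127 had no such interval in follicular-like cells of either library, which does not show that the 2 segments differ. Igkv10-96 marked 4.89% of wild-type follicular-like cells against 1.57% elsewhere (3.12, 1.30 to 8.60), and 2.99% against 2.02% in the knock-in (1.48, 0.515 to 4.81), where its share of marginal zone-like cells was 5.33%. Transitional-like cells were marked most by Igkv1-110 and Igkv1-117 in the wild type, with 18 and 16 of 201 cells, and by Igkv1-117 in the knock-in, with 12 of 122. Igkv19-93 marked 15 of the 201, 7.46% against 3.64% in other stages (2.05, 1.01 to 4.02), and 7 of 122 in the knock-in (1.84, 0.648 to 4.61). Igkv1-135 marked 15 wild-type and 9 knock-in transitional-like cells, and Igkv12-46 marked 9 in the knock-in. The most frequent segments of follicular-like cells were Igkv1-117 (44 of 470) and Igkv12-44 (34) in the wild type, and Igkv12-44 (31 of 401) and Igkv1-110 (27) in the knock-in. Activated-like cells were marked first by Igkv17-127 in the wild type (6 of 78) and by Igkv1-117 in the knock-in (4 of 33).

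Igkv14-126, rare elsewhere, had a higher share in B-1-like cells of both libraries, and Igkv4-91 in those of the knock-in only. Segments this rare in B cells are named here only for their place in a stage or in plasma cells. The B-1-like cells that made them eligible also give the ratios below, which may therefore be too high and are a description only. Splenic and peritoneal B-1 cells are known for receptors against phosphatidylcholine, in which Ighv11-2 pairs with Igkv14-126 and Ighv12-3 with Igkv4-91. Igkv14-126 marked 3 of 34 wild-type B-1-like cells (8.82%) and 5 of 882 cells of the other stages (0.567%), a ratio of 15.6 with a lower bound of 2.42. In the knock-in it marked 5 of 49 (10.2%) and 1 of 649 (0.154%), a ratio of 66.2 with a lower bound of 7.41. Igkv4-91 marked 4 of 49 knock-in B-1-like cells (8.16%) against 0.616% elsewhere (ratio 13.2, 2.47 to 71.1). It marked 0 of 34 in the wild type, which allows a share of up to 8.82% (3 counts). Cycling-like cells were too few to place, with Igkv14-126 in 1 of 9 in the wild type.

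The heavy chain segments of the same cells bear on the pairing. Ighv11-2 was the leading heavy segment in 12 of 32 wild-type B-1-like cells with Ighv RNA and in 0 of 366 follicular-like cells, and in 5 of 34 and 0 of 297 in the knock-in. Of the 3 B-1-like cells with both Igkv14-126 and an Ighv segment, 1 wild-type and 2 knock-in, the segment was Ighv11-2 in each. The single B-1-like cell with Igkv4-91 and an Ighv segment, in the knock-in, had Ighv12-3. Other pairs were seen too. The second knock-in B-1-like cell with Ighv12-3 and an Igkv segment had Igkv12-44. Of 5 knock-in plasma cells with Ighv11-2, 1 had Igkv14-126, 2 had Igkv1-135 and 2 had Igkv8-27. Outside the B-1-like cells, Igkv14-126 was seen with Ighv1-82 in 1 wild-type follicular-like cell and with Ighv3-6 in 1 wild-type cycling-like cell. Igkv4-91 was seen with Ighv3-6 in 1 knock-in follicular-like cell and with Ighv1-66 in 1 knock-in plasma cell. Igkv12-44 and Igkv1-110 were otherwise the most frequent in B-1-like cells, with 5 cells each in the wild type and 5 and 4 in the knock-in.

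**Figure D4:**
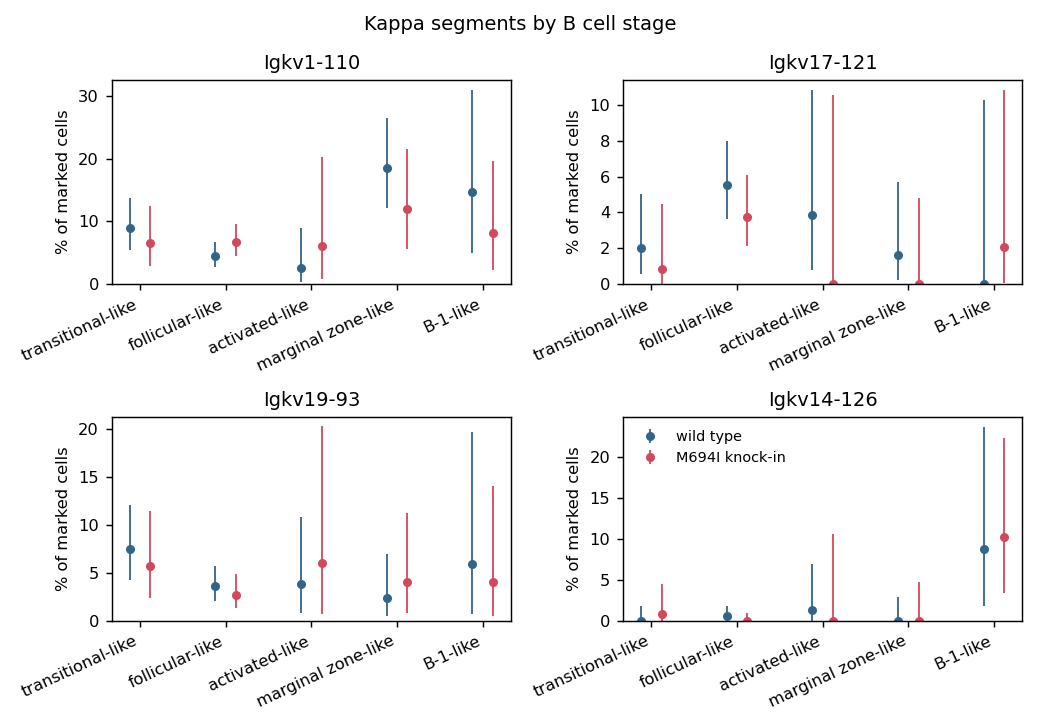
Share of marked cells carrying Igkv1-110, Igkv17-121, Igkv19-93 and Igkv14-126 in 5 B cell stages (cycling-like cells, 9 and 18 of them marked, are not drawn), with exact 95% intervals for counting error, in the wild type and the knock-in. Igkv1-110 is highest in marginal zone-like cells (18.5% and 12.0%), and of the stages drawn Igkv14-126 is highest in B-1-like cells (8.82% and 10.2%), with at most 1.28% in the others.

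Diversity is given as the Simpson effective number, the number of equally used segments that would give the same chance of drawing 2 cells with one segment. Over all marked B cells it was 27.9 (wild type) and 31.7 (knock-in). It was 26.6 in transitional-like cells of both libraries. In the wild type it was lowest in marginal zone-like cells, at 16.5, and 18.1 in B-1-like cells. In the knock-in those stages stood at 26.9 and 28.7. Activated-like cells stood at 42.9 and 27.8. In 50 cells drawn from each, 24.5 different segments would be seen in wild-type and 25.4 in knock-in marginal zone-like cells, and 27.1 and 26.7 in transitional-like cells. The effective numbers have no interval here, and B-1-like cells numbered 34 and 49.

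Plasma cells carried enough Igkv RNA to name the segment of nearly every cell. With at least 2 UMIs, 32 of 33 wild-type (96.97%) and 134 of 151 knock-in plasma cells (88.7%) were led, by 21 and 46 segments. The leading segment had a median of 14.5 and 10.5 UMIs per cell. Relative to Igkc its median was 4.86 and 2.84 UMIs per 1000, and single cells ranged from 1.67 to 28.5 (wild type) and from 0.615 to 19.2 (knock-in). A second segment with at least 2 UMIs was present in 4 of 32 and 15 of 134 led cells.

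Igkv5-39 led more knock-in plasma cells than any other segment. It led 24 of 134 (17.9%, 11.8 to 25.5%) and 0 of 32 in the wild type, which allows a share of up to 9.38% by 3 counts (exact upper limit 10.9%). With at least 5 UMIs for the leading segment it led 11.1% in the knock-in (5.87 to 18.6%), and the intervals overlapped (wild-type upper limit 11.2%). They also overlapped for plasma cells with at least 200 Jchain UMIs, at 19.1% (12.2 to 27.7%) against an upper limit of 13.2%. Its UMIs numbered 130 in 28 knock-in plasma cells, 5 in 5 knock-in B cells, 1 in a wild-type B cell and 0 in T cells of both libraries. The sum in plasma cells was at least 3.17 higher on the log2 CPM scale, with the wild type placed at 3 counts. The leading cells held 2 to 12 Igkv5-39 UMIs, with a median of 4.5.

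The Igkv5-39 cells did not share a single heavy chain. All 24 had a leading Ighv segment, and 8 different ones were seen. Ighv9-3 was found in 8 cells, Ighv5-4 in 5, Ighv3-1 in 4 and Ighv10-1 in 3. Of the 24, 20 expressed Ighm as the leading heavy constant gene, while the 3 cells with Ighv10-1 expressed Igha, Ighg2b or Ighg2c. Cells with the same pair of segments may belong to 1 clone, and the junctions that would show it were not analysed here. Counting each Igkv and Ighv pair once, a choice made after seeing the data, Igkv5-39 held 8 of 85 knock-in pairs (9.41%, 4.15 to 17.7%) and 0 of 25 wild-type pairs (exact upper limit 13.7%). The intervals of the 2 libraries then overlapped. Among led knock-in cells Igkv5-39 was found in 20 of 99 Ighm cells (20.2%) and 4 of 35 switched cells (11.4%), with overlapping intervals.

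Other plasma cell segments were spread thinly. In the knock-in Igkv1-135 and Igkv2-137 each led 8 cells (5.97%, 2.61 to 11.4%). For Igkv2-137, 4 of the 8 were paired with Ighv1-78, while it had marked only 2 of 739 knock-in B cells. Igkv14-111, Igkv4-59 and Igkv4-72 led 5 cells each, and 4 of the Igkv4-72 cells carried Ighv1-81. In the wild type Igkv14-111 led 4 cells (12.5%, 3.51 to 29.0%), each with a different Ighv segment, and Igkv6-15 led 3 (9.38%). The next 6 segments, with 2 cells each, included Igkv1-117, Igkv10-96 and Igkv9-120.

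**Figure D5:**
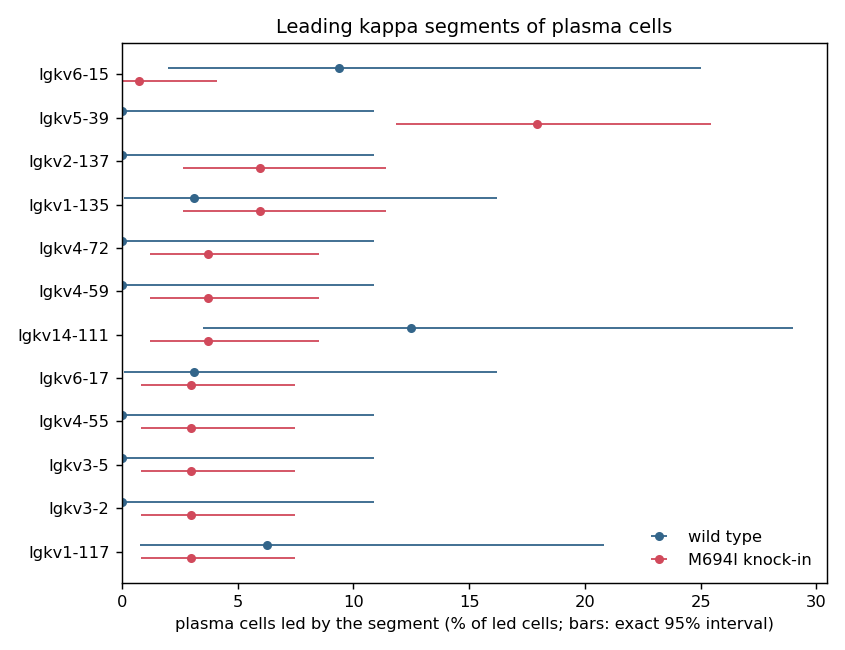
Share of led plasma cells (leading segment with at least 2 UMIs) for the segments leading at least 4 knock-in or 3 wild-type cells, with exact 95% intervals for counting error over 32 wild-type and 134 knock-in cells. Igkv5-39 stands at 17.9% in the knock-in and 0 in the wild type, with intervals that overlap once at least 5 UMIs are asked for, and the intervals of the other segments overlap.

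Segment pairs were repeated more in the larger sample of knock-in plasma cells. Of 118 knock-in cells with both segments, 49 (41.5%) shared their pair with another cell, in 16 pairs. Of 27 wild-type cells, 4 (14.8%) did, in 2 pairs. The number of cells sampled raises this share by itself, so the 2 values are not compared. The Simpson effective number of segments was 33.1 for wild-type and 21.2 for knock-in plasma cells. Without the most frequent segment of each library, Igkv14-111 and Igkv5-39, it was 42.0 and 41.3. With each pair counted once it was 30 and 43.0, so the order of the libraries depends on how cells that share a pair are counted. The 32 wild-type cells showed 21 segments, and 32 drawn from the knock-in would show 20.9.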

How the data were processed

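Values as deposited are unnormalized UMI counts for each gene in each barcode. Per the file headers the software was Cell Ranger 6.1.2, whereas version 7.1.0, with Seurat 5.0.3 and mm10, is listed per the submitters' processing notes. How reads from near-identical segments were assigned is not given in the sources used here. Cells with at least 500 UMIs, 200 genes and under 10% mitochondrial UMIs were kept. Scrublet in scanpy 1.11.5 (expected rate 0.08) marked 232 wild-type (2.38%) and 173 knock-in cells (2.02%) as doublets, which were removed; its random seed was changed after the first had marked 1 knock-in cell.

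B cells of both libraries were clustered together (2000 variable genes without immunoglobulin and T cell receptor segments, 30 principal components, 15 neighbours, leidenalg 0.10.2, resolution 1). A cluster took the marker list with the highest score if that was at least 0.7 with at least 3 markers detected; this scoring was chosen after the clusters had been seen. Follicular-like cells as a whole were compared with other stages within a library only.

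UMIs were summed per library and class and divided by the class total (CPM). Shares carry Clopper-Pearson, sums Poisson and ratios conditional binomial intervals, exact at 95%, for counting error only, since UMIs of 1 cell and cells of 1 clone are not independent. A library at 0 was placed at 3 counts. Simpson numbers use pairs of different cells, and richness and thinning were computed analytically. The calculations were tested on simulated data. No segment was left out, and positions and sequences came from GENCODE M21 on GRCm38. The planned recombination signal and promoter motif search is not reported here.

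Named segments were the 15 with the highest mean share of led B cells, the 5 highest and lowest ratios among segments of at least 30 cells (here marked cells, since no segment led that many), and the 3 leading segments of each stage and of plasma cells; others are said to be chosen after their values were seen. Members, lists and rules were chosen with earlier results of these data known. Alternatives are given in the closing section.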

Additional observations from a re-analysis of the deposited data

Results flagged for a closer look

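Igkv UMIs were also found outside the B, plasma and T cell classes, in cells and barcodes that enter no comparison above. Kept cells of no class held 30 Igkv UMIs in 17 wild-type cells and 91 in 29 knock-in cells. In the knock-in 1 of these cells held 47, with 16 Jchain UMIs and 595 Igkc UMIs, and 44 remained without it. Barcodes removed by the filters held 89 UMIs in 76 wild-type barcodes and 40 in 38 knock-in barcodes. All 4 sums were above the 0 and 4 UMIs of the T cells. No group has more than 1 library, so no library could be set against others of its group.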

How the results depend on the processing

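No paired analysis was possible because each group has 1 library. For the same reason no library could be left out. The log2 ratios of summed Igkv UMIs in all, B and plasma cells kept their direction and stayed within their intervals under the other filters, TMM factors, totals without immunoglobulin genes and without the highest cell. Igkv1-117, Igkv1-110, Igkv12-44, Igkv1-135 and Igkv17-127 stayed within the intervals of the main shares of led B cells under each rule run. At 1 UMI, the shares of B cells led were 14.6% (wild type) and 13.6% (knock-in), and knock-in Simpson numbers were 26.6 in transitional-like, 26.9 in marginal zone-like and 28.7 in B-1-like cells, from 9.0, 15 and 10.0 at 2 UMIs in 10, 15 and 5 cells. At 5 UMIs, 0.0156% and 0.0917% of B cells were led (1 and 5 cells; knock-in Simpson number 10.0), and knock-in plasma cells gave 71.5% led, Igkv5-39 at 11.1% and a Simpson number of 32.8. With a leading share of at least 80%, 78.8% of knock-in plasma cells were led. With a B cell sum of at least 10, 2.04% of wild-type B cells were led, and Simpson numbers were 45.5 (wild-type marginal zone-like) and 14.0 (knock-in transitional-like). With a mitochondrial limit of 5% the wild-type marginal zone-like number was 11.3. With at least 200 Jchain UMIs, 100% and 94.0% of plasma cells were led. At resolution 2 the numbers were 52.5 and 28.0 for wild-type transitional-like and activated-like cells and 21.0 for knock-in B-1-like cells. Without a filter, a library at 0 was still placed at 3 counts, which can reverse the direction of segments with fewer UMIs. Igkv14-130, with 2 wild-type and 0 knock-in UMIs, thus counted as higher in the knock-in. Igkv4-71, with 0 and 1, counted as lower. Counted in this way, 58 segments were higher and 17 lower in the knock-in over all cells, 36 and 16 in B cells, and 31 lower in plasma cells. For such segments these counts give no direction. With at least 20 UMIs the higher and lower segments numbered 30 and 7 over all cells and 7 and 2 in B cells. With the CPM limit, which no segment reached, the numbers were 0. Without each segment's highest cell, 6 were higher and 7 lower in plasma cells, with 13 passing. With each Igkv and Ighv pair counted once, Igkv5-39 held 9.41% of the knock-in plasma cell pairs and the Simpson number was 43.0. By cells, without those led by Igkv5-39, the number was 41.3, and the wild type without its Igkv14-111 cells stood at 42.0. T cells allowed up to 2 B cell UMIs gave the same background counts. The causes of these shifts were not tested, apart from the numbers of cells or segments given. Depth limits these values: B cells carry mostly 1 Igkv UMI, so each segment's share rests on few cells.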
